A study of Mus musculus with 9 samples.

Results

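A set of 29 genes for making, sensing, moving and exporting cholesterol was followed across 3 kinds of mouse mammary epithelial aggregate. The set was picked by symbol, and all 29 symbols were found among the 54456 gene names of the deposited count table. The 18 synthesis genes run from the joining of acetyl-CoA units to the last step before cholesterol, and the other 11 cover sterol sensing, uptake control, transport inside the cell, efflux and storage. All 29 also passed the filter on low counts that left 18051 genes to test.

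Basal and luminal epithelial cells of wild-type mice were separated by flow cytometry and re-aggregated. Mixed aggregates held 50% basal and 50% luminal cells, luminal aggregates held luminal cells only and basal aggregates held basal cells only, with 3 libraries of each. All aggregates sat in 80% Matrigel, a basement membrane gel, and migrated towards a heparin sulfate bead of 100 to 150 µm that had been soaked in FGF10 at 100 µg/mL, a growth factor that attracts mammary epithelium. RNA was taken after 56 h by the treatment label and 55 h by the titles, and the comparison was meant to separate what basal and luminal cells bring to collective migration. Every aggregate met FGF10, so nothing here measures what FGF10 itself did. The age of the mice is not in the labels. Nor do the labels tell whether replicate libraries stem from different mice or cultures, so the p-values describe the spread of these libraries, which may be technical.

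The libraries held 15585324 to 19164405 counts, and a floor of 3 counts lay at 0.152 to 0.187 CPM. CPM, the unit of all levels below, divides a count by its library's TMM-scaled total. These limits cover counting error only. All 8 basal markers, Krt5 among them, were lower and all 8 luminal markers, Krt8 among them, were higher in luminal than in basal aggregates, as the labels have it. The luminal libraries still held 1400 to 2754 CPM of summed basal markers, against 9323 to 10628 CPM in the basal libraries. Krt14 made up most of the luminal sum, at 2502, 2554 and 1285 CPM in luminal 1 to 3. Oxtr averaged 88.6 CPM in luminal and 287 CPM in basal aggregates. Krt5 averaged 17.7 and 1842 CPM there, Acta2 44.6 and 2604 CPM, and Mylk 0.543 and 134 CPM. The column names of the count table begin with 3 different codes, whose meaning the labels do not give. Mixed 1 to 3 share a code with basal 2 (series A), basal 1, basal 3 and luminal 1 share another (series B), and luminal 2 and 3 share the last (series C). Basal 2 stood apart within its group: across genes it correlated with basal 1 and basal 3 at r = 0.927 and 0.936, while basal 1 and basal 3 correlated at r = 0.986. In a fit with the series as a term, luminal minus basal rests on luminal 1 against basal 1 and 3, mixed minus basal rests on mixed 1 to 3 against basal 2, and mixed minus luminal is reached only through basal. A lone library is there assumed to vary like the other groups, so these values describe single libraries more than kinds of aggregate. Members whose call ended in that fit are given with that value, and some results that rest on basal 2 are given with and without it.

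Cholesterol is built from acetyl-CoA by way of mevalonate, short isoprenoid units, squalene and lanosterol, and most of these enzymes are switched on together by the transcription factor SREBP2 (Srebf2). When membranes of the endoplasmic reticulum are rich in sterol, the escort protein Scap and the anchor protein Insig1 keep SREBP2 there, and when sterol runs low Scap carries it to the Golgi to be cut and released. Oxysterols act the other way through the liver X receptors, which switch on the exporters Abca1 and Abcg1 and the ubiquitin ligase Mylip, which marks lipoprotein receptors for breakdown. In the mammary gland, lipid synthesis is best known from the secretory luminal cells of lactation, and dividing cells of any kind need sterol for new membrane.

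Upstream sequence was looked up in RefSeq (build GRCm38.p6, which is not the mm39 build of the counts) for the 23 members with an entry, since the synthesis genes are known to share control by SREBP2. A sterol element spelled TCACNCCAC, its inner part CACNCCA, the box CCAAT read by NF-Y, a partner of SREBP2, and the GC box GGGCGG were searched on both strands in the window of 250 bases before to 50 after the start. CCAAT was in 19 of 23 members and in 14 of 15 synthesis genes with an entry, against 42.8% of the 11632 tested genes with one and 37.4% of all 32851 promoters. TCACNCCAC was in Hmgcs1 alone, against 1.38% of tested genes and 1.24% of all promoters, and CACNCCA, which lies inside it, was in 6 of 23 members, against 20.9% and 18.4%. GGGCGG was in 21 of 23 members, against 65.9% and 35.7%. A match is a string of letters and not a shown binding site. The 150 bases before the start are printed 5′ to 3′ for Hmgcs1, which holds the sterol element, and for Idi1 and Mvk, synthesis genes with several CCAAT boxes that were picked after the search. They are also printed for the 3 members with an entry that were higher in luminal aggregates. Of these Mylip holds 3 CCAAT boxes, the farthest at 190 bases before the start and thus outside the printed stretch, while Abca1 and Nr1h2 hold none. Capitals mark TCACNCCAC and CCAAT, which appears as ATTGG where it lies on the other strand.
Hmgcs1, chr13:119690201-119690350, forward strand: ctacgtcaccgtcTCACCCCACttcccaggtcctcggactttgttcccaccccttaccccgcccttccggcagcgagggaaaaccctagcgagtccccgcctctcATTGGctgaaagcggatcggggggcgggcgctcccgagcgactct
Idi1, chr13:8885456-8885605, forward strand: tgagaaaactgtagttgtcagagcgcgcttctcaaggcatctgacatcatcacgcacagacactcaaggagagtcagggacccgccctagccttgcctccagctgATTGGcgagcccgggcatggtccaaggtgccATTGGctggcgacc
Mvk, chr5:114444119-114444268, forward strand: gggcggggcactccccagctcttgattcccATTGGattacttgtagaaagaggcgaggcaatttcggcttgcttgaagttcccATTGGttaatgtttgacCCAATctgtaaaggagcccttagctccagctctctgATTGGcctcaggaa
Mylip, chr13:45389592-45389741, forward strand: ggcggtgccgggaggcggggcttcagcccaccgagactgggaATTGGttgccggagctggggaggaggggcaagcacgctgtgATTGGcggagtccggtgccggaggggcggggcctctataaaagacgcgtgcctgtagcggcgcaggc
Abca1, chr4:53159896-53160045, reverse strand: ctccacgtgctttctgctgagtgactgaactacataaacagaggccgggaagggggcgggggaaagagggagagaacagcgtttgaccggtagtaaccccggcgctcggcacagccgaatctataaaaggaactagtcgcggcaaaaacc
Nr1h2, chr7:44553966-44554115, reverse strand: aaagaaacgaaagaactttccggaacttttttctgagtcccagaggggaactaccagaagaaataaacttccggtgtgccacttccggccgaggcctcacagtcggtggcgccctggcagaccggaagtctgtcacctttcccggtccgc

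Luminal aggregates had less RNA of the cholesterol synthesis pathway than basal aggregates and more of the efflux genes. Of the 29 members 20 were lower and 4 were higher in luminal than in basal aggregates, where 27.1% of all tested genes were called (14.4% lower and 12.8% higher). The remaining 5 did not pass the test. A call means an adjusted p under 0.05 in edgeR's quasi-likelihood test, Benjamini-Hochberg adjusted across 18051 genes per contrast, and every adjusted p below is of this kind. Among the 18 synthesis genes 15 were lower, 14 of them by at least 2-fold, and 3 were not called. Their median log2 difference, luminal minus basal, was -1.86, beside -0.0248 for all tested genes. Of the other 11 members 4 were higher and 5 lower. In bulk RNA, fewer cells of a type and less RNA per cell cannot be told apart.

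Mixed aggregates stood nearer to basal than to luminal aggregates in most of the synthesis genes. In 11 of these 18 genes the mixed and basal libraries overlapped. The share with such overlap over all tested genes was not counted, so this count alone does not set these genes apart. Against luminal aggregates, 18 members were higher and 4 lower in mixed aggregates, where 29.4% of all tested genes were called (15.2% higher and 14.2% lower). All 14 synthesis genes called in this contrast were higher in mixed aggregates, and the median log2 difference of the 18 was 1.51, beside -0.0466 for all tested genes. Against basal aggregates, 5 members were lower in mixed aggregates and 0 were higher, where 13.7% of all tested genes were called (7.33% lower and 6.39% higher). At an unadjusted p under 0.05 these counts were 8 lower and 3 higher, beside 2975 lower and 2350 higher of all 18051 tested genes. DESeq2 called 8 members lower and 2 higher, beside 4004 genes called in either direction over all genes. With the series as a term, 17 of the 22 calls between mixed and luminal aggregates ended, and their values are given with the genes. The 3 comparisons share libraries, so a gene's values in them are not independent.

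**Figure D1:**
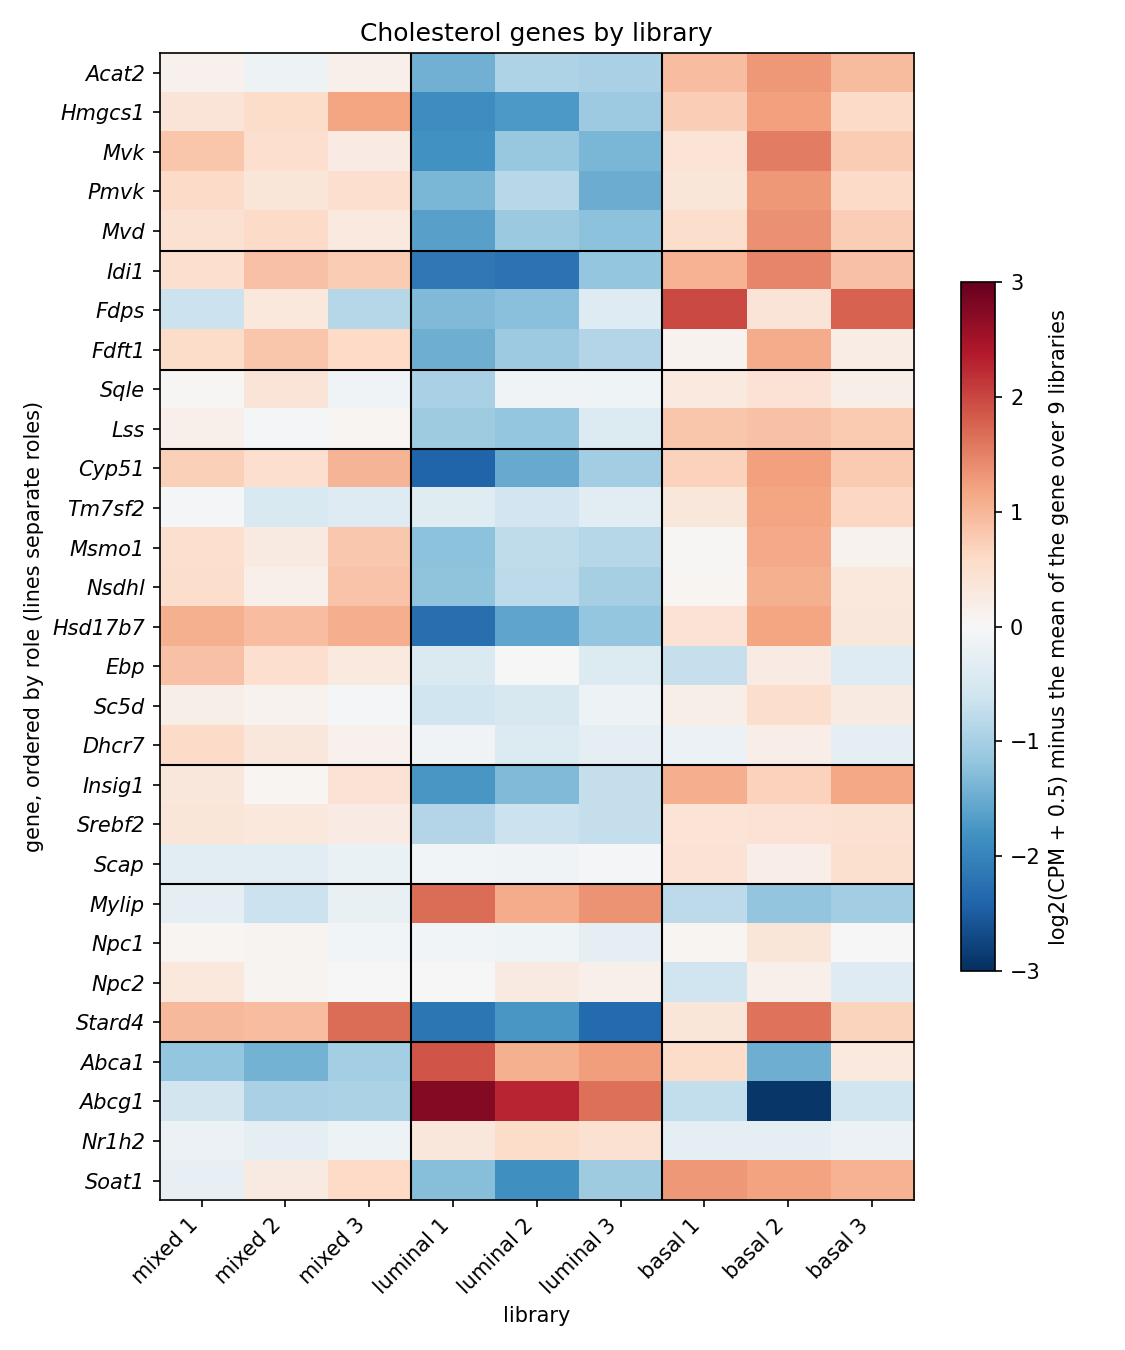
Level of each of the 29 genes (rows, ordered by role) in each of the 9 libraries (columns), as log2(CPM + 0.5) minus the mean of the gene over the 9 libraries. Luminal libraries are blue in most synthesis rows and red for Mylip, Abca1 and Abcg1, and basal 2 is the darkest basal column in most synthesis rows.

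Summed over the 18 synthesis genes, the libraries held 1808, 1729 and 1841 CPM in mixed, 622, 807 and 841 CPM in luminal and 1663, 2532 and 1708 CPM in basal libraries. Every luminal sum lay below every mixed and basal sum, and basal 2 lay above all other libraries while basal 1 and 3 lay just below the mixed range. Proliferation genes moved with these sums: the summed level of 16 of them, from Mki67 to Birc5, was 1931 to 2258 CPM in mixed, 173 to 219 CPM in luminal and 2416 to 3224 CPM in basal libraries, with basal 2 again the highest. All 16 were lower in luminal than in basal aggregates and higher in mixed than in luminal aggregates. The part of proliferation in the sterol gene differences was not tested.

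Summed over the efflux and storage genes Abca1, Abcg1, Nr1h2 and Soat1, the libraries held 209.9, 187 and 221 CPM in mixed, 949, 665 and 643 CPM in luminal and 376, 188 and 343 CPM in basal libraries. The luminal libraries were the highest, and basal 2 lay within the range of the mixed libraries and below basal 1 and 3. Abca1 and Abcg1 are also strong in macrophages. The summed level of 7 macrophage and other immune markers was 43.4 to 65.5 CPM in mixed, 22.3 to 53.8 CPM in luminal and 4.57, 48.6 and 4.08 CPM in basal libraries. In luminal aggregates Cd68, a lysosomal gene of macrophages and other cells, made up most of it at 24.8, 20.9 and 50.2 CPM. C1qa had 0 counts in luminal libraries and Lyz2 averaged 0.0613 CPM there. Csf1r and Adgre1, of the same list, were low but not absent. Csf1r had 0.432, 0.178 and 2.30 CPM in luminal 1 to 3. Its luminal mean of 0.971 CPM was above the means of the other kinds (mixed 0.742, basal 0.113). Luminal minus basal was not called for Csf1r (adjusted p = 0.12). Adgre1 had 0 counts in luminal 1 and 2 and was highest in luminal 3, at 0.871 CPM. Cd74, an antigen presentation gene, had 26.7, 26.3 and 36.4 in mixed, 1.03, 1.19 and 0.0622 in luminal and 1.88, 27.3 and 0.632 CPM in basal aggregates. The mixed libraries and basal 2, which share a series, were the high ones. Summed adipocyte markers did not pass 1.25 CPM in any library, and fibroblast markers summed to 15.9 to 38.0 CPM in mixed, 6.53 to 10.4 CPM in luminal and 21.5 to 29.1 CPM in basal libraries. The part of immune or stromal cells in the differences was not tested.

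**Figure D2:**
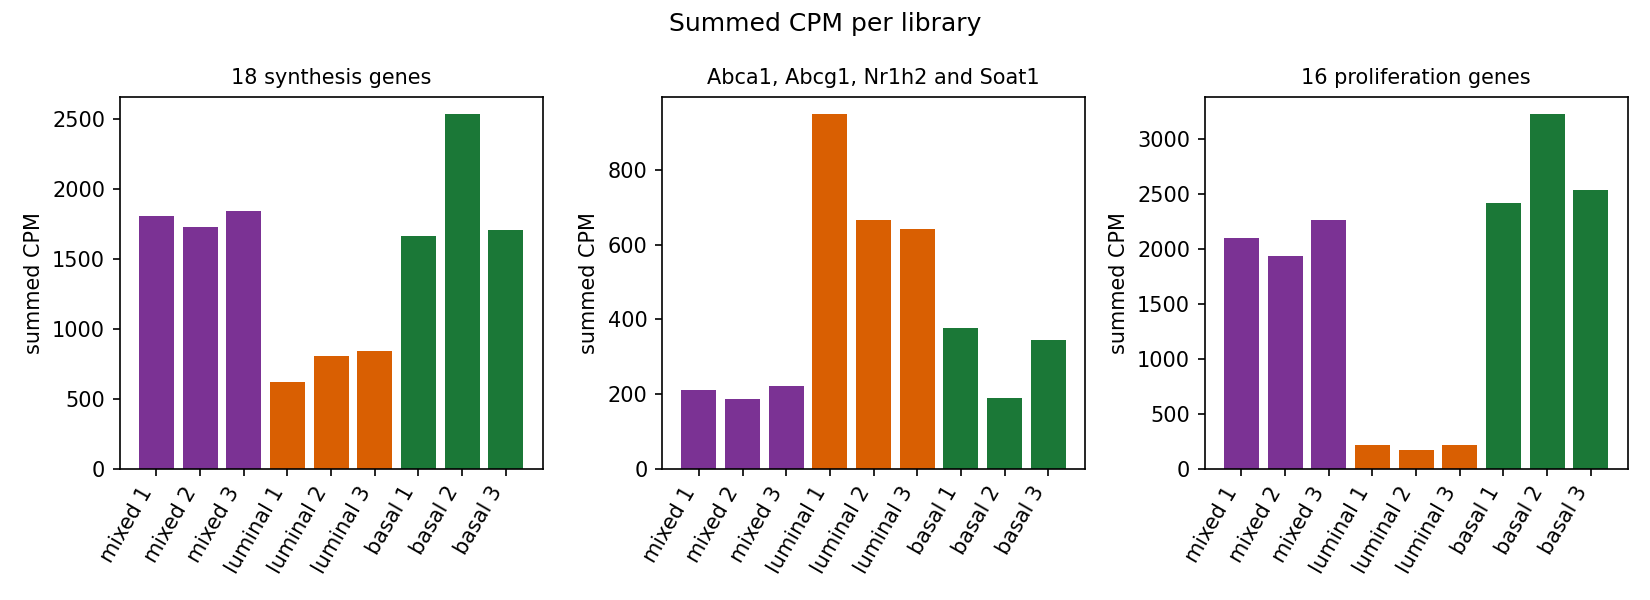
Summed CPM in each library (bars; mixed, luminal, then basal libraries) for the 18 synthesis genes, for Abca1, Abcg1, Nr1h2 and Soat1, and for 16 proliferation genes. The luminal bars are the lowest for synthesis (622 to 841 CPM) and proliferation and the highest for efflux and storage, and basal 2 is the highest for synthesis at 2532 CPM.

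The 5 enzymes from acetyl-CoA to the activated isoprenoid unit were all lower in luminal than in basal aggregates and all higher in mixed than in luminal aggregates. Hmgcs1, which makes HMG-CoA (mm39 chromosome 13, 120151915 to 120169796), had 144, 162 and 251 in mixed, 30.0, 32.8 and 51.0 in luminal and 185, 260.2 and 163 CPM in basal aggregates. Every luminal library lay below every mixed and basal library, and mixed and basal libraries overlapped. Its log2 difference was -2.42 ± 0.29 (SE, adjusted p = 7.2e-05) for luminal minus basal. It was 2.29 ± 0.29 (adjusted p = 0.00023) for mixed minus luminal and -0.13 ± 0.27 (adjusted p = 0.79) for mixed minus basal. Mvk, which phosphorylates mevalonate, had 49.0, 39.1 and 32.4 in mixed, 7.39, 12.2 and 10.3 in luminal and 36.7, 80.0 and 46.5 CPM in basal aggregates. Here mixed and basal aggregates overlapped and luminal aggregates lay apart. Luminal was 5.47-fold below basal (-2.45 ± 0.32 (SE, adjusted p = 0.00014)), and mixed was 4.04-fold above luminal (2.01 ± 0.31 (adjusted p = 0.001)). Pmvk, the next kinase, had 89.2, 76.2 and 84.9 in mixed, 22.7, 33.3 and 20.9 in luminal and 76.1, 148 and 89.1 CPM in basal aggregates. The log2 differences were -2.03 ± 0.27 (adjusted p = 0.00016) for luminal minus basal and 1.70 ± 0.26 (adjusted p = 0.001) for mixed minus luminal. In Mvk and Pmvk basal 2 was the highest of the 9 libraries, and the mixed libraries lay close to basal 1 and 3. Mvd, the decarboxylase that ends this stretch, kept the same order, at -2.27 ± 0.25 for luminal minus basal and 1.79 ± 0.24 for mixed minus luminal. These calls of mixed over luminal ended with the series as a term, at 2.05 (adjusted p = 0.085) for Hmgcs1, 1.496 (adjusted p = 0.16) for Mvk, 1.03 (adjusted p = 0.31) for Pmvk and 1.38 (adjusted p = 0.083) for Mvd.

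Acat2, the cytosolic thiolase that joins the first acetyl-CoA units (chromosome 17, 13161777 to 13179634), differed from its neighbours in that mixed aggregates lay between the pure kinds with no overlap. It had 90.1, 73.0 and 91.6 in mixed, 29.9, 43.1 and 41.6 in luminal and 156, 203 and 159 CPM in basal aggregates. Its log2 difference was -2.17 ± 0.20 (SE, adjusted p = 9.6e-06) for luminal minus basal. It was -1.02 ± 0.19 (adjusted p = 0.0059) for mixed minus basal and 1.15 ± 0.19 (adjusted p = 0.0017) for mixed minus luminal. With the series as a term it was -1.26 (adjusted p = 0.0051) for mixed minus basal, and the call of mixed over luminal ended at 1.14 (adjusted p = 0.097).

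The 3 enzymes from isoprenoid to squalene were all lower in luminal than in basal aggregates. Idi1, the isomerase that readies the isoprenoid unit for chain building (chromosome 13, 8935537 to 8942487), had 38.3, 49.3 and 45.9 in mixed, 5.67, 5.40 and 11.6 in luminal and 55.2, 74.5 and 49.6 CPM in basal aggregates. This was the largest fold among the synthesis genes, 7.91-fold lower in luminal than in basal aggregates (log2 difference -2.98 ± 0.31 (SE, adjusted p = 2.6e-05)). It was 5.89-fold higher in mixed than in luminal aggregates (2.56 ± 0.31 (adjusted p = 0.00017)). The count table also lists 5 pseudogene names of Idi1, and reads that align to several places were not counted, so its level may be an undercount in every library. Fdft1, squalene synthase, had 171, 206 and 177 in mixed, 41.8, 53.9 and 62.3 in luminal and 125, 250.4 and 136 CPM in basal aggregates. Mixed libraries lay above basal 1 and 3 and below basal 2. The log2 difference was -1.69 ± 0.27 (adjusted p = 0.00057) for luminal minus basal, 1.81 ± 0.27 (adjusted p = 0.00074) for mixed minus luminal and 0.11 ± 0.26 (adjusted p = 0.8) for mixed minus basal. Ctsb, a cathepsin gene, covers 18.8% of the exon bases of Fdft1, and reads there were given to neither gene. In the series fit, mixed minus luminal was 2.46 (adjusted p = 0.063) for Idi1 and 1.20 (adjusted p = 0.075) for Fdft1, and both calls ended.

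Fdps, farnesyl diphosphate synthase, was the exception among the synthesis genes in its order over the basal libraries. It had 3.72, 7.69 and 3.10 in mixed, 2.10, 2.25 and 4.54 in luminal and 25.4, 8.10 and 21.9 CPM in basal aggregates. Basal 2 was lower than basal 1 and 3 and lay next to mixed 2, so the fall in mixed aggregates rests on basal 1 and 3. Its log2 difference was -2.64 ± 0.53 (SE, adjusted p = 0.0032) for luminal minus basal and -1.93 ± 0.52 (adjusted p = 0.03) for mixed minus basal. With the series as a term mixed minus basal was -0.75 (adjusted p = 0.57). The call against basal also ended when any of basal 1, basal 3, mixed 1 and mixed 3 was left out (adjusted p = 0.087 to 0.13, log2 differences -1.80 to -1.64). At 4.39 ± 2.17 RPKM (CPM per kilobase of exon) in basal aggregates, it was far below the neighbouring step Fdft1 at 41.4 ± 16.9 RPKM (SD, n = 3). Of its exon bases 26.7% are shared with Gm43738, so its level is uncertain.

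Of the 2 steps from squalene to lanosterol, Lss was lower in luminal than in basal aggregates and Sqle did not pass the test. Lss, lanosterol synthase, had 60.5, 52.2 and 56.4 in mixed, 25.6, 24.1 and 41.1 in luminal and 96.9, 99.6 and 93.7 CPM in basal aggregates. The basal libraries lay close together and above all others. The log2 difference was -1.68 ± 0.21 (SE, adjusted p = 0.00011) for luminal minus basal, 0.90 ± 0.21 (adjusted p = 0.0089) for mixed minus luminal and -0.78 ± 0.20 (adjusted p = 0.028) for mixed minus basal. The last of these ended with the series as a term (-0.82, adjusted p = 0.14) and when any mixed library, basal 1 or basal 3 was left out (adjusted p = 0.059 to 0.084). The call of mixed over luminal also ended in the series fit, at 1.07 (adjusted p = 0.32). Sqle, the squalene epoxidase that is often named as a control point of the pathway, had 168, 218 and 153 in mixed, 83.7, 154 and 151 in luminal and 204, 223 and 187 CPM in basal aggregates. Only luminal 1 lay well below the other libraries, and luminal minus basal was -0.66 ± 0.24 (adjusted p = 0.06). With luminal 1 left out it was -0.41 (adjusted p = 0.21). The difference was called with library size scaling, DESeq2, limma-voom, no filter and the replicate block (adjusted p = 0.019 to 0.043, log2 differences -0.80 to -0.63). It was also called with the series as a term (-1.22), which uses luminal 1 alone.

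Of the 8 enzymes from lanosterol to cholesterol, 6 were lower in luminal than in basal aggregates and 6 were higher in mixed than in luminal aggregates. Cyp51, the lanosterol demethylase (chromosome 5, 4131145 to 4154746), had 133, 115 and 165 in mixed, 14.9, 28.2 and 38.7 in luminal and 131, 191 and 139.7 CPM in basal aggregates. The luminal libraries lay apart from all others. The log2 differences were -2.50 ± 0.31 (SE, adjusted p = 0.00011) for luminal minus basal and 2.33 ± 0.31 (adjusted p = 0.00037) for mixed minus luminal. Hsd17b7, a sterol ketone reductase, had 35.2, 31.6 and 35.6 in mixed, 3.02, 5.16 and 7.10 in luminal and 22.5, 37.9 and 21.2 CPM in basal aggregates. Mixed libraries stood above basal 1 and 3 and just below basal 2. The log2 differences were -2.42 ± 0.33 (adjusted p = 0.00022) for luminal minus basal, 2.75 ± 0.34 (adjusted p = 0.0002) for mixed minus luminal and 0.33 ± 0.31 (adjusted p = 0.51) for mixed minus basal. Msmo1 and Nsdhl, which strip methyl groups from the sterol ring, were also lowest in luminal aggregates, at -1.46 ± 0.29 and -1.55 ± 0.28 for luminal minus basal and 1.49 ± 0.29 and 1.53 ± 0.28 for mixed minus luminal. The series fit gave mixed minus luminal as 0.71 (adjusted p = 0.43) for Msmo1 and 0.88 (adjusted p = 0.46) for Nsdhl, and both calls ended.

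Sc5d, a late desaturase, was among the smallest called differences, with 126, 121 and 106 in mixed, 73.7, 80.3 and 101 in luminal and 127, 162 and 134 CPM in basal aggregates. It was 1.66-fold lower in luminal than in basal aggregates (-0.73 ± 0.17 (SE, adjusted p = 0.0089)), and the call ended without luminal 1 (adjusted p = 0.052). Tm7sf2, a sterol reductase, had 19.5, 14.6 and 15.3 in mixed, 15.8, 13.5 and 16.2 in luminal and 25.8, 46.5 and 31.5 CPM in basal aggregates. Here mixed aggregates lay with luminal and not with basal aggregates. The log2 difference was -1.07 ± 0.25 (adjusted p = 0.018) for mixed minus basal, 0.12 ± 0.25 (adjusted p = 0.75) for mixed minus luminal and -1.19 ± 0.25 (adjusted p = 0.0044) for luminal minus basal. With the series as a term mixed minus basal was -1.50 (adjusted p = 0.015). Luminal minus basal was -0.86 (adjusted p = 0.13) and no longer passed the test. The call against basal also ended without mixed 2, mixed 3 or basal 3 (adjusted p = 0.05 to 0.06), and 12.1% of its exon bases are shared with Vps51.

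Among the late steps, Ebp and Dhcr7 did not differ between the pure kinds beyond their spread and were higher in mixed than in luminal aggregates. Ebp, a sterol isomerase, had 251, 195 and 168 in mixed, 102, 135 and 104 in luminal and 85.1, 163 and 105 CPM in basal aggregates. All mixed libraries lay above all luminal and all basal libraries. The log2 difference was 0.85 ± 0.25 (adjusted p = 0.026) for mixed minus luminal, 0.80 ± 0.25 (adjusted p = 0.056) for mixed minus basal and -0.05 ± 0.25 (adjusted p = 0.91) for luminal minus basal. Dhcr7, the last reductase, had 118, 99.7 and 86.3 in mixed, 74.1, 59.8 and 66.0 in luminal and 70.6, 91.4 and 64.5 CPM in basal aggregates. Mixed 3 lay below basal 2 and above all other pure libraries. Mixed minus luminal was 0.60 ± 0.19 (adjusted p = 0.032), mixed minus basal 0.42 ± 0.19 (adjusted p = 0.15) and luminal minus basal -0.18 ± 0.19 (adjusted p = 0.54). The calls of mixed over luminal ended without luminal 1, luminal 3, mixed 1 or mixed 2 for both genes, and for Dhcr7 also without luminal 2 (adjusted p = 0.051 to 0.098 for Ebp and 0.058 to 0.12 for Dhcr7). When the series was a term, mixed minus luminal was 0.22 (adjusted p = 0.92) for Ebp and 0.013 (adjusted p = 1) for Dhcr7, and mixed minus basal was 0.33 (adjusted p = 0.6) for Ebp.

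**Figure D3:**
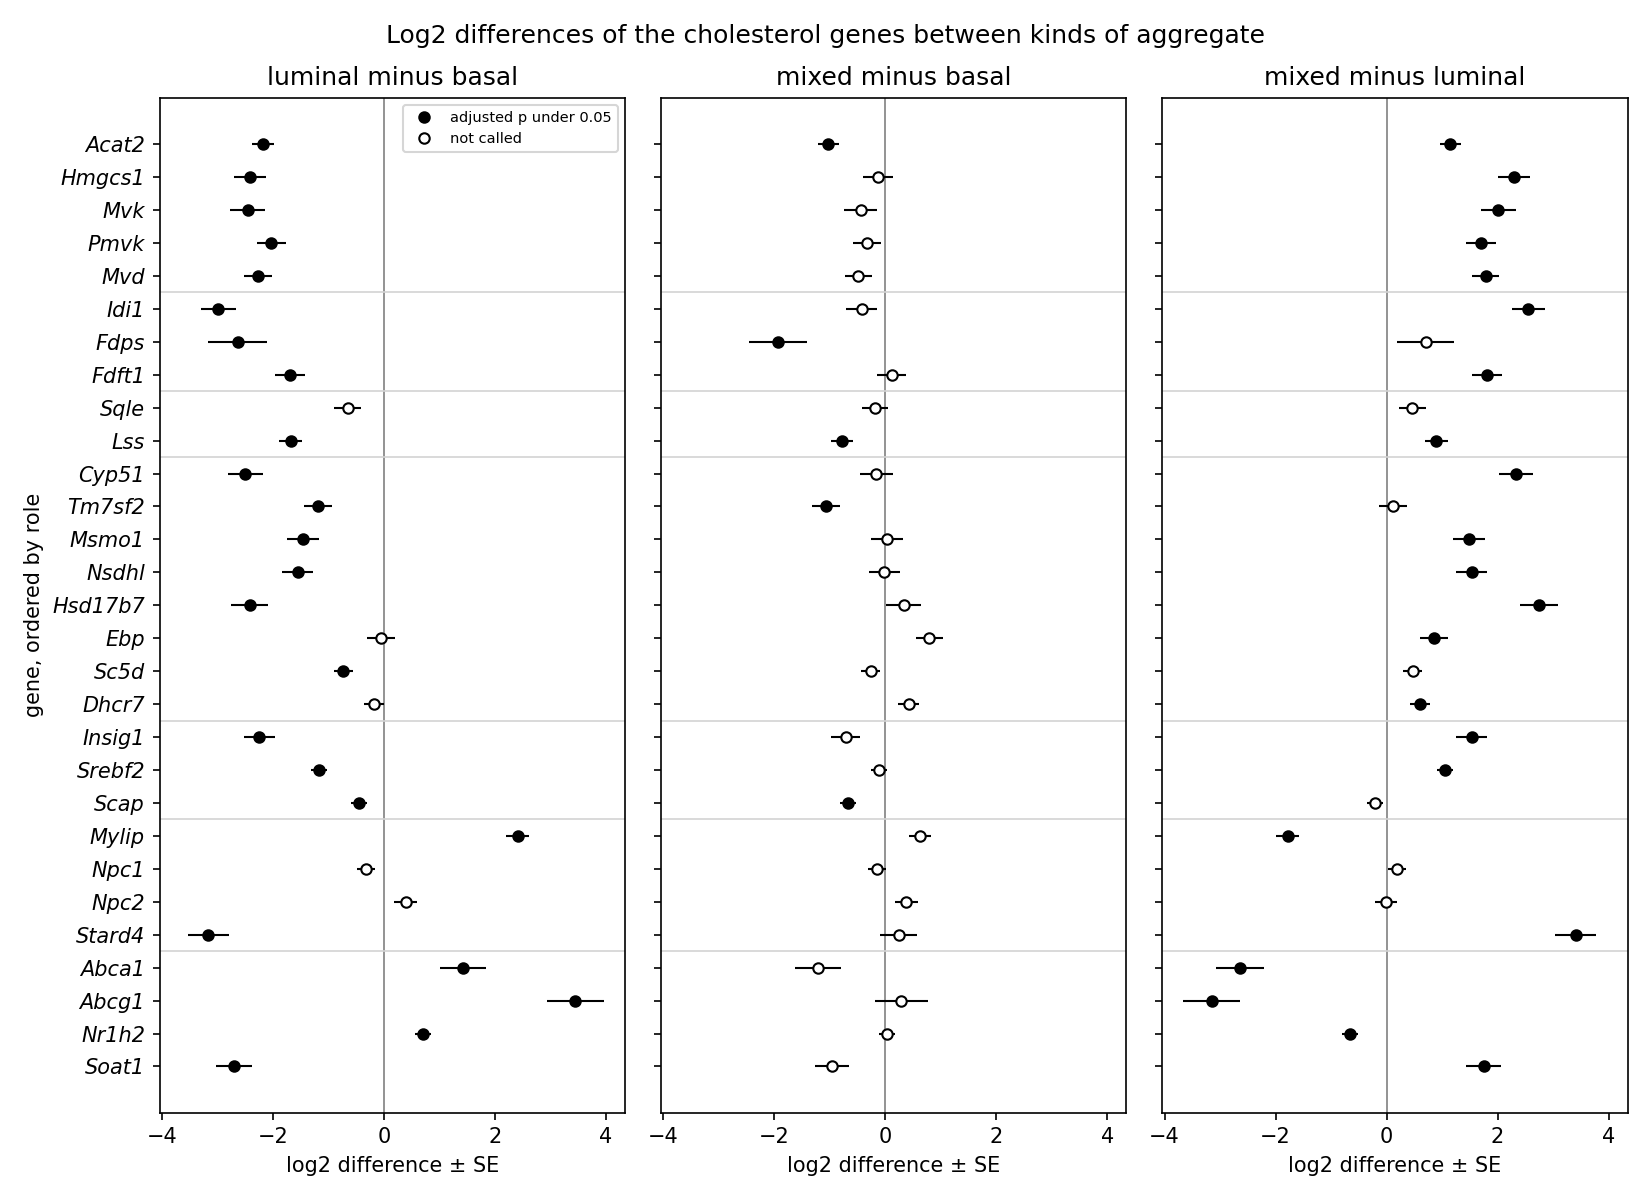
Log2 difference of each of the 29 genes (rows, ordered by role) in luminal minus basal, mixed minus basal and mixed minus luminal aggregates, with bars of 1 SE and filled points for an adjusted p under 0.05. The synthesis genes lie left of 0 in luminal minus basal and right of 0 in mixed minus luminal, and only 5 points are filled in mixed minus basal.

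The 3 genes of sterol sensing were all lower in luminal than in basal aggregates, Insig1 by the most. Insig1, the anchor that is itself a target of SREBP2 (chromosome 5, 28276361 to 28283660), had 31.1, 25.5 and 33.0 in mixed, 6.96, 9.44 and 14.6 in luminal and 52.0, 39.7 and 55.2 CPM in basal aggregates. It was 4.74-fold lower in luminal than in basal aggregates (-2.25 ± 0.28 (SE, adjusted p = 9.9e-05)). Mixed aggregates lay between the pure kinds, 2.89-fold above luminal (1.53 ± 0.27 (adjusted p = 0.0024)) and at -0.71 ± 0.26 (adjusted p = 0.096) against basal. Unlike most synthesis genes, it was lower in basal 2 than in basal 1 and 3. Srebf2 itself had 242, 232 and 223 in mixed, 101, 119.7 and 115 in luminal and 247, 254 and 257 CPM in basal aggregates. The spread within each kind was small. The log2 differences were -1.18 ± 0.15 (adjusted p = 9.9e-05) for luminal minus basal and 1.06 ± 0.15 (adjusted p = 0.00046) for mixed minus luminal. Scap had 66.2, 66.9 and 73.0 in mixed, 78.9, 78.4 and 80.6 in luminal and 113, 96.3 and 117 CPM in basal aggregates. Mixed aggregates were the lowest of the 3 kinds, at -0.66 ± 0.15 (adjusted p = 0.013) for mixed minus basal and -0.21 ± 0.15 (adjusted p = 0.3) for mixed minus luminal. The small difference of luminal minus basal, -0.46 ± 0.15 (adjusted p = 0.037), lost its call in 11 of 18 alternatives, the series fit among them (adjusted p = 0.11). The call of mixed against basal ended with the series as a term (-0.49, adjusted p = 0.17) and without basal 1, basal 3 or mixed 1 (adjusted p = 0.051 to 0.072).

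Uptake control and transport inside the cell did not move as a block. Mylip, the ligase that removes lipoprotein receptors (chromosome 13, 45543218 to 45565498), was higher in luminal aggregates, with 41.0, 32.2 and 43.0 in mixed, 163, 109 and 128 in luminal and 29.1, 21.8 and 24.3 CPM in basal aggregates. The 3 kinds did not overlap. The log2 differences were 2.41 ± 0.21 (SE, adjusted p = 6.8e-06) for luminal minus basal, -1.78 ± 0.20 (adjusted p = 0.00012) for mixed minus luminal and 0.63 ± 0.20 (adjusted p = 0.059) for mixed minus basal. Stard4, which carries cholesterol between membranes and is a target of SREBP2 (chromosome 18, 33332408 to 33346915), went the other way, with 47.5, 46.0 and 78.0 in mixed, 4.96, 6.82 and 4.36 in luminal and 31.0, 75.4 and 38.8 CPM in basal aggregates. It was 8.98-fold lower in luminal than in basal aggregates (-3.17 ± 0.37 (SE, adjusted p = 6.3e-05)), the widest difference among the members that were lower there. It was 10.6-fold higher in mixed than in luminal aggregates (3.41 ± 0.37 (adjusted p = 8.4e-05)). Mixed and basal libraries overlapped, with basal 2 next to mixed 3. In the fit with series, Stard4 was 2.41 (adjusted p = 0.072) for mixed minus luminal, and the call ended. Npc1 and Npc2, which hand cholesterol out of the lysosome, did not pass the test in any of the 3 comparisons. They had 59.2, 52.1 and 65.4 CPM (Npc1) and 217, 219 and 167 CPM (Npc2) on average in mixed, luminal and basal aggregates. Without basal 2, Npc2 was 0.63 (adjusted p = 0.013) for luminal minus basal and 0.62 (adjusted p = 0.016) for mixed minus basal.

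All 4 genes of efflux and storage differed between luminal and basal aggregates, 3 of them higher in luminal. Abcg1, which passes cholesterol to high-density lipoprotein (chromosome 17, 31276649 to 31336962), had 20.5, 15.2 and 15.4 in mixed, 207, 150.1 and 97.0 in luminal and 18.1, 3.58 and 20.0 CPM in basal aggregates. Every luminal library lay above every other library. The difference was 10.9-fold over basal (3.45 ± 0.51 (SE, adjusted p = 0.0004)), the largest of all members. Mixed lay 8.89-fold below luminal (-3.15 ± 0.51 (adjusted p = 0.0013)). Abca1, which loads cholesterol onto apolipoproteins (chromosome 4, 53030787 to 53159895), had 70.3, 58.6 and 76.8 in mixed, 580.1, 329 and 371 in luminal and 230.2, 56.0 and 191 CPM in basal aggregates. Luminal libraries were the highest, and the basal libraries fell into 2 levels, with basal 2 at the level of the mixed libraries. Luminal minus basal was 1.42 ± 0.41 (adjusted p = 0.024) and mixed minus luminal -2.64 ± 0.43 (adjusted p = 0.0014). The first of these was 1.01 (adjusted p = 0.011) without basal 2. It lost its call without luminal 1 (1.14, adjusted p = 0.096), with library size as the only scaling, and in a fit of the 2 groups alone. Both calls of mixed below luminal ended with the series as a term, at -1.20 (adjusted p = 0.29) for Abcg1 and -1.17 (adjusted p = 0.093) for Abca1, and both differences were much smaller.

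Nr1h2, the liver X receptor that most cells carry (chromosome 7, 44199040 to 44203375), had 111, 101 and 113 in mixed, 157, 183 and 170.3 in luminal and 101, 104 and 110.2 CPM in basal aggregates. Luminal libraries lay above all others, 1.62-fold over basal (0.70 ± 0.14 (SE, adjusted p = 0.0036)). Mixed lay 1.58-fold below luminal (-0.66 ± 0.14 (adjusted p = 0.0071)). Both calls ended with the series as a term, at 0.57 (adjusted p = 0.077) for luminal minus basal and -0.52 (adjusted p = 0.48) for mixed minus luminal. Soat1, which stores cholesterol as its ester, went against its group, with 8.64, 12.6 and 15.9 in mixed, 3.94, 2.49 and 4.61 in luminal and 25.9, 24.4 and 21.7 CPM in basal aggregates. It was 6.51-fold lower in luminal than in basal aggregates (-2.70 ± 0.33 (SE, adjusted p = 7.9e-05)). Mixed libraries stood between the pure kinds, at 1.75 ± 0.32 (adjusted p = 0.0026) against luminal and -0.95 ± 0.30 (adjusted p = 0.059) against basal. The call against luminal ended with the series as a term, at 1.61 (adjusted p = 0.38).

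**Figure D4:**
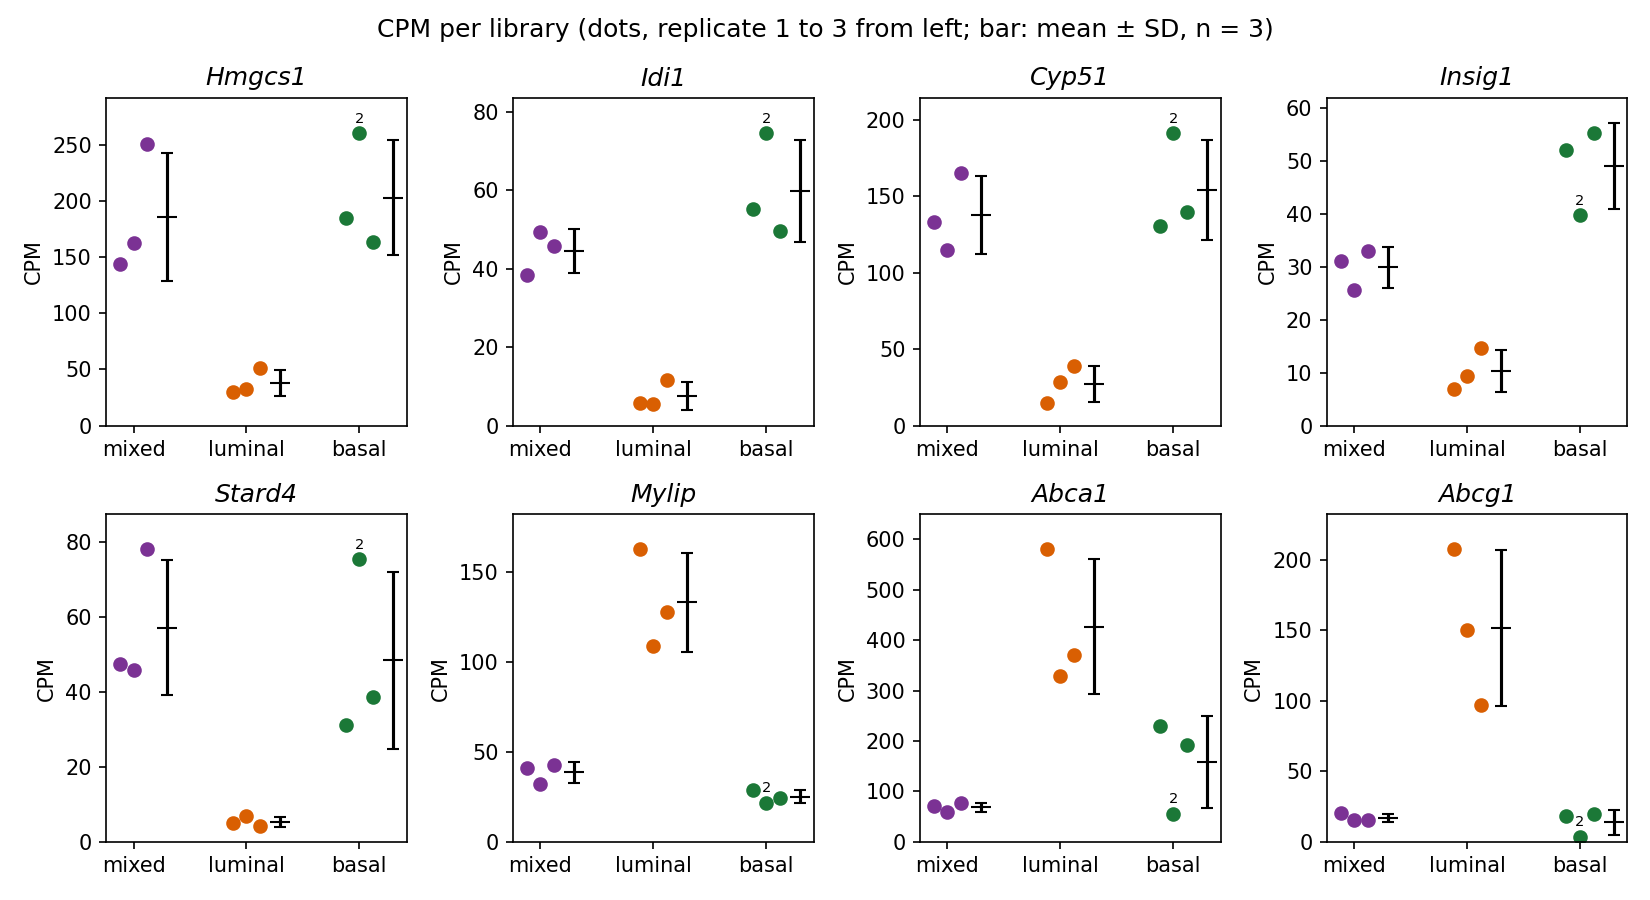
CPM of 8 members in each library (dots; mixed, luminal and basal aggregates, replicates 1 to 3 from left) with mean ± SD (n = 3), and basal 2 marked 2. Luminal dots are the lowest for Hmgcs1, Idi1, Cyp51, Insig1 and Stard4 and the highest for Mylip, Abca1 and Abcg1, and basal 2 lies with the mixed libraries for Abca1.

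Per length, the ranking of the genes differed between the kinds of aggregate. In RPKM, Ebp had the highest level of the synthesis genes in mixed aggregates at 88.5 ± 18.3 and in luminal aggregates at 49.1 ± 8.11 (SD, n = 3), while Acat2 led in basal aggregates at 67.8 ± 10.3. Mylip stood at 41.2 ± 8.45 RPKM in luminal aggregates, against 7.75 ± 1.14 RPKM in basal aggregates, and Abcg1 at 20.8 ± 7.57 RPKM against 1.90 ± 1.23 RPKM. Stard4 and Soat1 were low in luminal aggregates, at 0.963 ± 0.230 and 0.376 ± 0.110 RPKM, against 8.66 ± 4.24 and 2.45 ± 0.217 RPKM in basal aggregates.

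The place of the mixed aggregates between the pure kinds was described by the mean CPM on a scale from luminal at 0% to basal at 100%, with no test, since the RNA content of the 2 kinds of cell is not known. For the 15 synthesis genes called between the pure kinds the median position was 70.7%, from 6.73% for Tm7sf2 to 132% for Hsd17b7. Without basal 2, a choice made after seeing the data, the median was 95.6%, from 9.05% for Fdps to 178% for Msmo1. Idi1 lay at 70.7%, Hmgcs1 at 89.7% and Acat2 at 34.8%, and without basal 2 at 82.4%, 109% and 39.2%. Of the 18 synthesis genes 14 lay above the midpoint of the pure means and 4 below it, with and without basal 2. The 9 other members called between the pure kinds ranged from -36.0% for Scap and 42.8% for Soat1 to 120.3% for Stard4 and 134% for Abca1. Between them lay Insig1 at 50.5%, Srebf2 at 85.7%, Mylip at 87.3%, Nr1h2 at 95.5% and Abcg1 at 97.7%. Without basal 2 the range was -29.7% for Scap to 175% for Stard4, with Abca1 at 166%. The mixed libraries hold RNA of both kinds of cell, and the level in either kind within them was not measured. Beside these positions, the summed basal markers were 6075 to 7221 CPM in mixed, 1400 to 2754 CPM in luminal and 9323 to 10628 CPM in basal libraries. Krt14 made up most of that sum in luminal libraries. The summed luminal markers were 8239 to 9796 CPM in mixed, 6013 to 8890.5 CPM in luminal and 2649 to 2954.5 CPM in basal libraries. By that sum the mixed libraries lay with or above the luminal ones, but its genes did not move alike. Of the 8, mixed against luminal called 2 higher (Krt19 and Kit) and 3 lower (Krt18, Muc1 and Cldn4), with 3 not called. Krt19 alone averaged 4537 CPM in mixed, 1336 CPM in luminal and 856 CPM in basal aggregates.

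No member stood outside both pure kinds by the test of both contrasts together in edgeR, where 0.0499% of all tested genes stood above both and 0.0388% below both. DESeq2 and limma-voom also gave 0, and at an unadjusted p under 0.05 Ebp and Dhcr7 lay above both and Abca1 below both. Without basal 2, Ebp stood above both pure kinds (adjusted p = 0.025) and Abca1 below both (adjusted p = 0.0066).

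The comparison of mixed with basal aggregates depended on which basal libraries served. In 17 of the 18 synthesis genes, all but Fdps, basal 2 was above both basal 1 and basal 3. In 16 of the 18, all but Ebp and Dhcr7, every mixed library was below basal 2. Set against basal 1 and 3, every mixed library was above both in 5 synthesis genes and below both in 6. How often such orders occur over all tested genes was not counted. Leaving out basal 2 raised the count of members called to 10, with 3 higher and 7 lower, and leaving out basal 1 or basal 3 lowered it to 2 and 1. It was 2 without mixed 1 and 3 without mixed 2 or mixed 3, against 5 over all libraries. The calls over all tested genes moved the same way, from 2477 over all libraries to 5120 without basal 2 and 963 without basal 3. The shift is thus not particular to the members. The 3 higher without basal 2 were Ebp at 1.09 (adjusted p = 0.0046), Dhcr7 at 0.57 (adjusted p = 0.035) and Npc2, given above. Among the 7 lower were Abca1 at -1.63 (adjusted p = 0.0011) and Insig1 at -0.86 (adjusted p = 0.041). With the series as a term, which compares mixed 1 to 3 with the lone library basal 2, 4 members were called, with the spread taken from the other groups. Abcg1 was higher in mixed (2.25, adjusted p = 0.0078, against 0.29 over all libraries), and Acat2, Tm7sf2 and Mvd (-0.93, adjusted p = 0.041) were lower. Abca1 then stood at 0.29 (adjusted p = 0.55), against -1.21 (adjusted p = 0.073) over all libraries. Library series and kind of aggregate cannot be told apart for most of this contrast, because all mixed libraries are of series A.

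Luminal and basal libraries meet only in series B, so no series fit can tell how their difference varies between series. There luminal 1 stands alone against basal 1 and 3, with the spread taken from the other groups, and 22 members were called, against 24 over all libraries, with Sqle gained and Tm7sf2, Scap and Nr1h2 lost. Over all genes 2507 were called, against 4899 over all libraries. Hmgcs1 was -2.54 in that fit, Idi1 -3.21, Stard4 -2.81, Abca1 1.46 and Abcg1 3.44, luminal minus basal. Of these, Hmgcs1, Idi1 and Abca1 were slightly further from 0 than over all libraries, Stard4 was nearer and Abcg1 hardly moved. Other members further from 0 included Fdps at -3.48, Cyp51 at -3.18 and Insig1 at -2.94. No series holds both mixed and luminal libraries, so in that fit their contrast is reached only through basal, and 5 members were called, against 22 over all libraries. These were Cyp51 (2.70), Hsd17b7 (2.70), Insig1 (2.53) and Srebf2 (1.20), higher in mixed than in luminal aggregates, and Mylip (-1.78), lower.

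Genes around the pathway were taken from 5 further lists, whose shares of called genes stand beside 27.1% of all tested genes for luminal against basal, 29.4% for mixed against luminal and 13.7% for mixed against basal. For the genes of these lists, values in the series fit or with a library left out were not taken. Whether their calls hold there is not known. All 4 listed genes of acetyl-CoA supply were lower in luminal than in basal aggregates. In edgeR 0 of 4 were called between mixed and luminal aggregates, with 2 higher at an unadjusted p under 0.05. Acly, which makes cytosolic acetyl-CoA from citrate, had 229.5, 203 and 164 in mixed, 188, 126 and 246 in luminal and 505, 329.6 and 417 CPM in basal aggregates. Acss2, which makes it from acetate, had 16.9, 10.8 and 5.61 in mixed, 12.7, 11.8 and 17.5 in luminal and 39.4, 34.1 and 37.1 CPM in basal aggregates. Mixed libraries lay at the luminal level in both, at -1.07 ± 0.25 (adjusted p = 0.018) and -1.73 ± 0.35 (adjusted p = 0.0082) for mixed minus basal. Of 11 tested genes of 12 that lead isoprenoids to other products, luminal against basal called 2 higher and 3 lower. Mixed against luminal called 1 higher and 2 lower. Mixed against basal called 0 in edgeR, with 1 higher and 4 lower at an unadjusted p under 0.05. These were 45.5% of the tested list for luminal against basal and 27.3% for mixed against luminal. Ggps1 and Coq2, which act in the geranylgeranyl and ubiquinone branches, were higher in luminal than in basal aggregates (0.58 ± 0.19 and 0.47 ± 0.16). Pdss1 and Pdss2, subunits of the enzyme for the ubiquinone side chain, were lower (-1.47 ± 0.31 and -0.91 ± 0.30).

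Of 12 other genes of sterol synthesis and sensing, luminal against basal called 3 higher and 1 lower. Mixed against luminal called 2 higher and 5 lower, and mixed against basal called 2, both lower. These were 33.3% of the tested list for luminal against basal, 58.3% for mixed against luminal and 16.7% for mixed against basal. Lbr, a nuclear envelope protein with sterol reductase activity, went with the pathway, at -2.14 ± 0.24 (adjusted p = 5.1e-05) for luminal minus basal and 1.46 ± 0.24 (adjusted p = 0.0015) for mixed minus luminal. Insig2, the other anchor protein, and Erlin2, which helps to remove sterol enzymes and Insig1, were higher in luminal than in basal aggregates, at 0.52 ± 0.17 (adjusted p = 0.04) and 0.88 ± 0.24 (adjusted p = 0.017). Srebf1, the relative of Srebf2 that controls fatty acid synthesis and is a target of liver X receptors, had 332, 317 and 301 in mixed, 979, 651 and 671 in luminal and 825, 340.5 and 766 CPM in basal aggregates. It went with Abca1 and not with Srebf2 in that basal 2 lay at the level of the mixed libraries. The log2 difference was -1.28 ± 0.30 (adjusted p = 0.0093) for mixed minus luminal, -1.02 ± 0.29 (adjusted p = 0.041) for mixed minus basal and 0.25 ± 0.29 (adjusted p = 0.59) for luminal minus basal. Mbtps1, the first protease that cuts SREBP2 in the Golgi, was lower in mixed than in basal aggregates (-0.83 ± 0.23 (adjusted p = 0.035)). It was also lower in mixed than in luminal aggregates (-0.90 ± 0.23 (adjusted p = 0.014)), and luminal minus basal was 0.07 ± 0.23 (adjusted p = 0.87). Mbtps2, the other one, was higher in mixed than in luminal aggregates (0.70 ± 0.19 (adjusted p = 0.019)), though 28.4% of its exon bases are shared with Yy2.

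Of 15 other genes of uptake and transport, luminal against basal called 4 higher and 5 lower. Mixed against luminal called 3 higher and 6 lower, and mixed against basal called 1 higher and 4 lower. The share of the list called was 60% for both comparisons with luminal aggregates and 33.3% for mixed against basal. Lipa, the lysosomal lipase that frees cholesterol from its esters, had 209, 201 and 264 in mixed, 641, 939 and 1456 in luminal and 22.4, 28.5 and 21.2 CPM in basal aggregates. The 3 kinds did not overlap, at 5.40 ± 0.32 (SE, adjusted p = 4.5e-07) for luminal minus basal and 3.22 ± 0.29 (adjusted p = 6.5e-05) for mixed minus basal. Lrp1, a large receptor for lipoprotein remnants and other ligands, had 41.4, 50.7 and 38.9 in mixed, 26.2, 7.36 and 9.03 in luminal and 138, 98.2 and 119 CPM in basal aggregates. The order was the opposite, at -3.05 ± 0.41 (adjusted p = 0.00018) for luminal minus basal. Tmem97, a sterol-responsive membrane protein, followed the synthesis genes, basal 2 included, with 87.8, 70.8 and 77.1 in mixed, 17.3, 21.5 and 17.4 in luminal and 54.8, 148 and 77.1 CPM in basal aggregates. Luminal minus basal was -2.31 ± 0.31 (adjusted p = 0.0002). Vldlr, a lipoprotein receptor, was lower in mixed than in basal aggregates (-1.11 ± 0.20 (adjusted p = 0.004)). Osbpl2, a lipid exchange protein, was higher in luminal than in basal aggregates (1.15 ± 0.19 (adjusted p = 0.00078)). Gramd1b, which brings sterol from the cell surface, was lower in mixed than in luminal aggregates (-2.74 ± 0.78 (adjusted p = 0.023)). Its levels were low and spread, at 2.69, 0.861 and 0.109 CPM in mixed and 9.77, 8.90 and 5.79 CPM in luminal libraries. Mixed 3 held 2 counts, below the floor of 3.

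Of 8 tested genes of 12 for other efflux, esterification and oxysterol steps, luminal against basal called 1 higher and 2 lower. Mixed against luminal called 2 higher and 2 lower, and mixed against basal called 1 of each. The share of these 8 genes called was 37.5% for luminal against basal, 50% for mixed against luminal and 25% for mixed against basal. Smpdl3a, a phosphodiesterase that liver X receptors switch on in macrophages, had 88.9, 92.3 and 108 in mixed, 252, 188 and 211 in luminal and 22.5, 24.4 and 20.5 CPM in basal aggregates. Luminal minus basal was 3.27 ± 0.18 (adjusted p = 3.3e-07). Arl4c, a small GTPase reported as a liver X receptor target in other cells, went against Abca1 and Abcg1, with 84.5, 83.0 and 115 in mixed, 19.5, 17.3 and 10.2 in luminal and 47.0, 99.9 and 59.1 CPM in basal aggregates. Luminal minus basal was -2.13 ± 0.32 (adjusted p = 0.00037). Cyp7b1, which breaks down oxysterols, had 7.90, 7.26 and 8.06 in mixed, 0.324, 0.356 and 0.311 in luminal and 8.42, 9.42 and 7.76 CPM in basal aggregates. Its luminal values are 5 to 6 counts. It was -4.66 ± 0.40 (adjusted p = 6.8e-06) for luminal minus basal. Lpcat3, a phospholipid enzyme under liver X receptor control, was lower in mixed aggregates than in both others (-0.73 ± 0.18 (adjusted p = 0.012) against luminal and -0.73 ± 0.18 (adjusted p = 0.02) against basal). These lists were chosen with results of these data known, and their counts describe the genes named.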

How the data were processed

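RNA for 9 libraries (3 mixed, 3 luminal, 3 basal) was sequenced from a small-input extraction with a stranded mRNA preparation. The values deposited are raw counts for each gene name, beside its summed exon length. Per the submitters' processing notes and the file headers, the authors used Trim Galore and Subread with build mm39 and counted read pairs over exons with featureCounts 2.0.1, with no strand option and without reads of several alignments, so antisense partners cannot be told apart and close copies are undercounted. For the aligner's settings, the sources used here give nothing.

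The counts were fitted with edgeR 4.0.16 (limma 3.58.1, R 4.3.3): filterByExpr, TMM scaling, and all 9 libraries in 1 fit of 3 groups with 6 residual degrees of freedom, tested two-sided with robust quasi-likelihood at an adjusted p under 0.05. The SE is the absolute log2 difference over the square root of F. CPM and RPKM use TMM-scaled library sizes. A gene outside both pure kinds differed from each in the same direction, with the larger of both p-values adjusted. On simulated counts, 21% of 2-fold and 59% of 4-fold changes were called for luminal against basal (4.76% false calls, 17301 genes), and 16% and 55% for mixed against basal (6.58% false calls, 17305 genes).

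The members and lists were chosen with earlier results of these data known. Values per library were to be given for the called members with the largest and smallest difference in each role and contrast and for those that went against their role; this gave 21 members, and Abca1, Ebp and Sqle were added after their values were seen. Up to 2 higher and 2 lower called genes per contrast were named from each further list, apart from Acly and Acss2 of the acetyl-CoA list. Title numbers did not pair the libraries (r of same-numbered libraries -0.166 to 0.201). Alternatives were RLE and library size scaling, DESeq2 1.42.0, limma-voom, other filters, fits of 2 groups, a replicate block, the code series as a term, and each library left out, and, for positions between the pure kinds, basal 2 left out (chosen after seeing the data).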

Additional observations from a re-analysis of the deposited data

How the results depend on the processing

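The count of members called between luminal and basal aggregates stayed between 21 and 25 in every alternative run (24 as reported), and that between mixed and luminal aggregates between 20 and 23 (22), except with the code series as a term, where it was 5. Between mixed and basal aggregates it was 5 as reported, 10 with DESeq2, 8 with limma-voom, 9 without a filter on low counts, and 1 (without basal 3) to 10 (without basal 2) when 1 library was left out. Members outside both pure kinds numbered 0, but 2 without a filter (Ebp above, adjusted p = 0.012, and Abca1 below, adjusted p = 1.4e-06) and 0 to 2 (without basal 2) when 1 library was left out. Over all genes, the calls between mixed and basal aggregates were 2477 as reported, 4004 with DESeq2, 3903 without a filter, 853 with the code series and 963 (without basal 3) to 5120 (without basal 2) when 1 library was left out. With the code series they were 2507 between luminal and basal (4899) and 491 between mixed and luminal aggregates (5309), and with 1 library left out 3678 to 5393 and 2967 to 6774. The cause of these shifts was not tested. The code series fit and the fits with 1 library less also have fewer residual degrees of freedom, and the part of this was not tested either.

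The title numbers do not pair the libraries. With the replicate block 24, 6 and 22 members were called for luminal against basal, mixed against basal and mixed against luminal, and 4548, 2127 and 5006 genes in all; Fdps lost its call against basal in mixed aggregates and Ebp and Mylip gained one.

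Signs turned round only for differences that did not pass the test as reported. For mixed minus basal these were, with library size scaling, Fdft1 at -0.00063, Msmo1 at -0.083 and Nr1h2 at -0.12; Nsdhl at 0.031 with limma-voom and 0.041 with the block; and with the code series Fdft1 at -0.44, Msmo1 at -0.58, Hsd17b7 at -0.15, Npc2 at -0.022, Stard4 at -0.40 and Abca1 at 0.29. For mixed minus luminal they were Npc2 at 0.019 in the fit of 2 groups and 0.00093 with the block, and with the code series Tm7sf2 at -0.63, Scap at 0.056 and Npc1 at -0.23. For luminal minus basal they were Ebp at 0.10 and Dhcr7 at 0.13 with the code series. With 1 library left out, mixed minus basal ranged from -0.42 to 0.080 for Hmgcs1, -0.33 to 0.010 for Cyp51, -0.046 to 0.48 for Fdft1, -0.15 to 0.46 for Msmo1, -0.22 to 0.33 for Nsdhl, -0.065 to 0.70 for Stard4, -0.18 to 0.64 for Abcg1 and -0.0051 to 0.071 for Nr1h2. Mixed minus luminal ranged from -0.026 to 0.19 for Tm7sf2 and -0.12 to 0.050 for Npc2, and luminal minus basal from -0.20 to 0.25 for Ebp. The median of all genes was -0.166 with library size scaling for luminal minus basal and -0.221 for mixed minus basal, and without a filter it was 0.0948 for luminal minus basal and -0.308 for mixed minus luminal.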
